A study of Mus musculus with 6 samples.

Results

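Levels of 10 Notch genes were followed in DN3 thymocytes: the receptors Notch1 and Notch3, the DNA-binding effector Rbpj, and the direct targets Dtx1, Hes1, Heyl, Nrarp, Il2ra, Ptcra and Igf1r. They were found by Ensembl gene ID, and only transcript starts on the gene's own strand whose exon overlaps the annotated gene were summed. A level was obtained for 9 of the 10, among 11825 genes with a level in all, and all 9 entered the test of 8922 genes. Nrarp, a feedback inhibitor of the Notch complex, had no listed event. DN3 thymocytes are early T cell precursors that carry CD25 and lack CD4, CD8, CD44 and other lineage markers. They were sorted from 5-week-old untreated WT mice and from 5-week-old untreated mice labelled Hspa9 cKO, a conditional knockout of the gene for GRP75, the HSP70 chaperone of the mitochondrial matrix; the comparison asked what that chaperone does in early thymocyte development. The sources used here do not name the Cre line that drives the deletion. There were 3 libraries per group. Nothing in the labels ties a library to its own animal, and the p-values therefore cover the spread among libraries alone, which may be technical.

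Notch receptors are cut by gamma-secretase after ligand binding, and the freed intracellular domain joins RBPJ and Mastermind proteins on DNA to switch on targets. In the thymus, Notch1 commits progenitors to the T lineage and keeps DN3 cells alive until the pre-T cell receptor, which contains the product of Ptcra, signals; Notch targets are normally shut down after that step. Notch3 and Dtx1 are at once part of the pathway and targets of it.

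Levels are in FPKM, which corrects fragment numbers for transcript length and library size; read depth is unknown, and levels of different genes can be set side by side per length. Summed start events came to between 256513.1 and 272918.3 FPKM in WT libraries and between 248014.5 and 252473.5 FPKM in Hspa9 cKO libraries, without overlap. Divisors that rescale the libraries by median ratios of gene levels were 0.986 to 0.997 in WT and 1.026 to 1.035 in Hspa9 cKO. The main fit was not rescaled and so carries this difference in scale. For the targeted gene, Hspa9, WT replicates 1 to 3 read 105.4, 121.2 and 121.7 FPKM and Hspa9 cKO replicates 1 to 3 read 117.2, 123.5 and 109.7 FPKM, overlapping ranges. The share of Hspa9 transcripts that included exons 2 to 4, against those joining the flanking exons, was 100%, 89.9% and 86.1% in the WT libraries and 24.5%, 15.8% and 26.7% in the Hspa9 cKO libraries. The groups were apart, but the ratio was not called (limma on splicing ratios, log2 change -5.9, unadjusted p = 0.00248, adjusted p = 0.191). Of 9 DN3 markers, a list that includes Il2ra and Ptcra, 8 had a level, summing to between 1557 and 2130 FPKM in WT and between 2258 and 2666 FPKM in Hspa9 cKO. Without Il2ra and Ptcra the sums overlapped, at 1345 to 1896 FPKM in WT and 1723 to 2158 FPKM in Hspa9 cKO. Cd3g and Thy1 were the largest parts of these sums. Thy1 alone ran from 455.5 to 962.9 FPKM in WT and from 415.9 to 794.4 FPKM in Hspa9 cKO. Gene by gene, Rag2, Cd3e, Cd3g and Bcl11b were higher in every Hspa9 cKO library than in any WT library. That arrangement was found upward in 23.2% of all tested genes. Rag1 and Thy1 overlapped. Of markers of the next stages, DN4 and double positive thymocytes, Cd8b1 fell from 6.36, 5.81 and 6.03 FPKM to 2.12, 2.71 and 2.08 FPKM (limma, log2 change -1.10, adjusted p = 0.00465), and Cd4 stayed under 1 FPKM in every library. Erythroid markers summed to between 37.2 and 44.9 FPKM in WT and 22.0 and 25.5 FPKM in Hspa9 cKO, from 3 of 5 genes; Hba-a2 (log2 change -0.83) and Hbb-bt (-0.53) fell, the latter not with any 1 library left out (adjusted p 0.0507 to 0.0979, limma). Of the B cell, NK and innate lymphoid, and thymic epithelial lists a single gene each had a level, and Cd79b, Nkg7 and Epcam rose (log2 changes 0.54, 0.90 and 0.47) while the defining genes Pax5, Ncr1, Foxn1 and Krt5 had no level. The DN3 marker Lck had no level either, so a missing level does not show that a gene or cell type was absent. The call of Cd79b was lost without any 1 library (adjusted p 0.0622 to 0.106, limma) and on rescaling (log2 change 0.48), and that of Epcam without WT replicate 1 or 2 or Hspa9 cKO replicate 1 or 2 (adjusted p 0.0521 to 0.0639). The part of these shifts in the results that follow was not tested. In a bulk sample, fewer cells of a type and less RNA per cell cannot be told apart.

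Several direct Notch targets and the receptor Notch3 were higher in Hspa9 cKO DN3 cells. Of the 9 members tested, 5 rose and none fell: Il2ra, Dtx1, Ptcra, Heyl and Notch3 (limma, adjusted p under 0.05). Over all genes tested, 8.34% were called higher and 5.81% lower, 14.1% in all (744 and 518 genes, or 590 and 657 after rescaling the libraries by median ratios). Heyl passed the filter of 1 FPKM in at least 3 libraries only through the Hspa9 cKO libraries, so it had to differ to be tested. In 6 members the 3 Hspa9 cKO libraries all lay above the 3 WT libraries, the 5 called and Notch1, an arrangement found upward in 23.2% of all tested genes and in either direction in 39.2%. The members' median log2 change was 0.45, beside 0.06 over all tested genes. These counts and this median include Heyl, and the members were chosen with earlier results of these data known. They describe the members and are no test of them as a set. Rescaling by median ratios ended no member's call. It gave log2 changes of 1.39 for Dtx1, 1.24 for Il2ra, 0.96 for Ptcra, 1.76 for Heyl and 0.39 for Notch3.

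**Figure D1:**
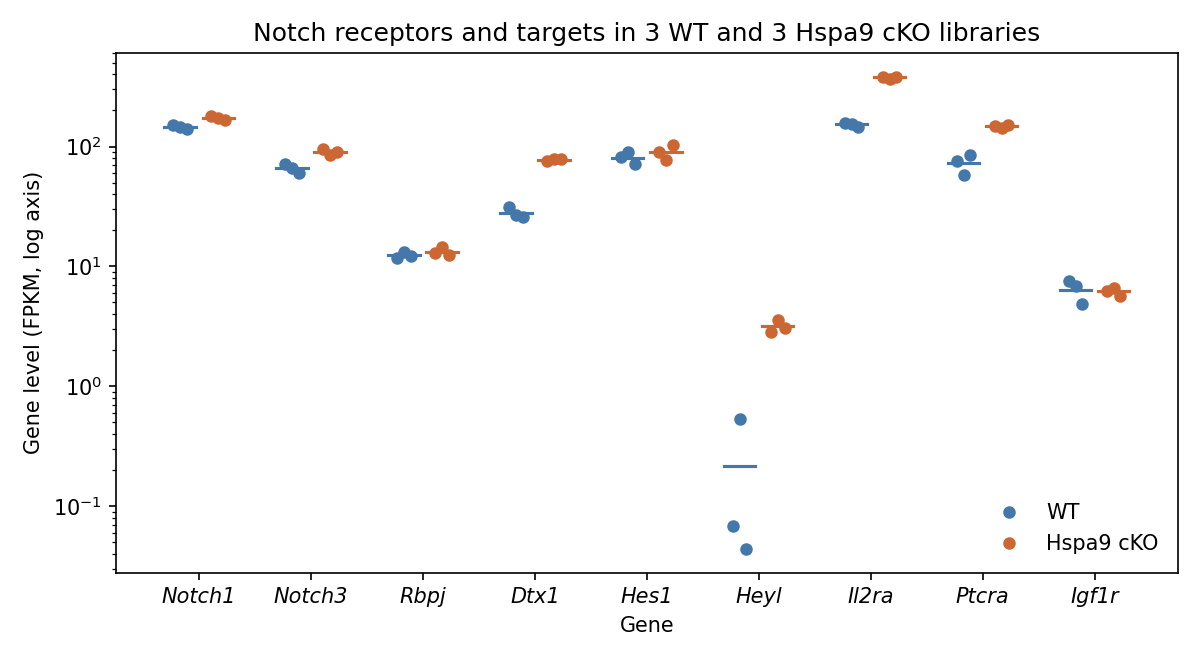
Level of each gene in FPKM (log axis) in 3 WT libraries (blue points) and 3 Hspa9 cKO libraries (orange points), with a bar at each group's mean. The groups are apart for Il2ra, Ptcra, Dtx1, Heyl, Notch3 and Notch1 and overlap for Rbpj, Hes1 and Igf1r.

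Both receptors were high in these cells. Notch1 (ENSMUSG00000026923, mm10 chromosome 2, 26457903 to 26516663, minus strand), the receptor that drives T lineage commitment, read 152, 146 and 139 FPKM in WT replicates 1 to 3. Hspa9 cKO replicates 1 to 3 read 180.0, 172 and 168 FPKM. The lowest Hspa9 cKO library was above the highest WT library, yet the change of 0.25 on the log2 scale (standard error 0.06, 95% interval 0.09 to 0.40) did not pass the test (limma, adjusted p = 0.0521). Notch1 was just outside the threshold, and Notch3, with an adjusted p of 0.0252, was the called member nearest to it.

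The Notch1 level hides a choice between starts. The main start, with the exon at 26503498 to 26503822, had 136, 146 and 139 FPKM in WT and 158, 172 and 80.3 FPKM in Hspa9 cKO. An upstream start, with an exon at 26516542 to 26517503, had 15.9 FPKM in WT replicate 1, 21.7 FPKM in Hspa9 cKO replicate 1 and 87.3 FPKM in Hspa9 cKO replicate 3, and was not listed in the other 3 libraries. So in Hspa9 cKO replicate 3 the upstream start carried 52.1% of the Notch1 start signal, against 12.1% and 0% in its group and at most 10.5% in WT. Neither start was called (limma on all start and end events, of which 4.38% were higher and 3.70% lower, 8.08% in all; adjusted p = 0.853 for the main and 0.533 for the upstream start). Start events also miss isoforms whose start is not listed: an internal exon ending at 26470058 carried 152, 162 and 139 FPKM in WT and 180.0, 195 and 168 FPKM in Hspa9 cKO. With that exon as the Notch1 level, an alternative chosen after seeing the data, the log2 change was 0.26 (limma, adjusted p = 0.105).

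Transcripts of the opposite strand also began at the upstream end of Notch1. These plus-strand starts, at 26516013 within the span of the annotated gene, carry the Notch1 ID. They lie on the strand opposite to that gene in GENCODE M21 and were kept out of the Notch1 level. Their summed level was 18.0, 11.6 and 9.999 FPKM in WT and 38.8, 32.7 and 34.5 FPKM in Hspa9 cKO, so all Hspa9 cKO libraries lay above all WT libraries (exact two-sided permutation test, p = 0.1, the smallest that 3 against 3 libraries allow). None of the 3 separate events tested there was called. The sources used here do not say whether the libraries kept strand, and without strand, reads of these exons and of the overlapping upstream Notch1 exon cannot be told apart. Counting these starts as Notch1 gave a log2 change of 0.39 and a call (limma, adjusted p = 0.0240).

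**Figure D2:**
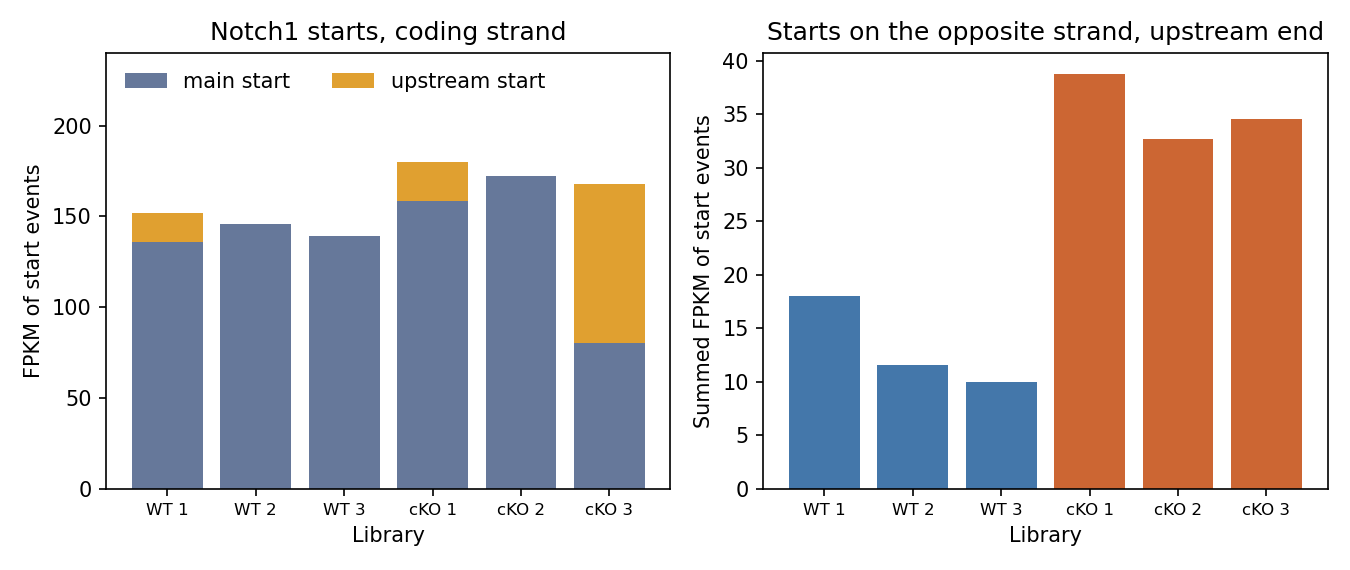
Left, FPKM of the main (grey-blue) and upstream (yellow) Notch1 start events, stacked, in each library; right, summed FPKM of the start events on the opposite strand at the upstream end, WT in blue and Hspa9 cKO in orange. The upstream start is large in Hspa9 cKO replicate 3 alone, and the opposite-strand starts reach 18.0 FPKM at most in WT and 32.7 FPKM or more in Hspa9 cKO.

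Notch3 (ENSMUSG00000038146, chromosome 17, 32120820 to 32166852, minus strand), a receptor that is itself induced by Notch1, rose by 0.45 on the log2 scale (standard error 0.09). It stood at 71.5, 66.2 and 59.6 FPKM in WT and at 94.5, 85.5 and 89.9 FPKM in Hspa9 cKO, with no overlap. Its single end event gave the same picture, with 62.5, 66.2 and 59.6 FPKM in WT and 84.8, 85.5 and 90.0 FPKM in Hspa9 cKO (limma on all start and end events, adjusted p = 0.0153). The call was lost without any 1 library except WT replicate 1: the adjusted p then lay between 0.0512 (WT replicate 3 left out) and 0.0826 (Hspa9 cKO replicate 3 left out; limma). The ratio of Notch3 to Notch1 within a library was 0.471, 0.453 and 0.428 in WT and 0.525, 0.496 and 0.536 in Hspa9 cKO.

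Rbpj (ENSMUSG00000039191, chromosome 5, 53466152 to 53657362, plus strand), which binds DNA for all Notch receptors, was at 11.6, 13.1 and 12.2 FPKM in WT and at 12.9, 14.4 and 12.4 FPKM in Hspa9 cKO. The groups overlapped, and the log2 change of 0.10 had a 95% interval of -0.13 to 0.32 (limma, adjusted p = 0.525). Rbpj used a pair of neighbouring first exons, and the first of them carried 19.8% to 28.4% of their signal in 5 libraries and 72.1% in WT replicate 1.

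Among the feedback genes that Notch switches on in many tissues, Dtx1 and Heyl rose and Hes1 did not pass the test. Dtx1 (ENSMUSG00000029603, chromosome 5, 120680202 to 120711927, minus strand) encodes Deltex1, a ubiquitin ligase that acts on Notch. It had 31.2, 26.8 and 26.0 FPKM in WT and 75.7, 78.3 and 79.4 FPKM in Hspa9 cKO. Its mean was 2.78 times higher, or 1.45 ± 0.09 (standard error) on the log2 scale (limma, adjusted p = 0.000985), and the groups were far apart. The start at 120711485 to 120711927 carried 99.0% and 98.9% of the Dtx1 start signal in WT replicates 2 and 3 and 99.6% to 99.7% in Hspa9 cKO. In WT replicate 1 it carried 70.2%, and starts inside the gene held the rest. That start alone went from 21.9, 26.6 and 25.7 FPKM to 75.4, 78.0 and 79.1 FPKM (limma on all start and end events, log2 change 1.61).

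Hes1 (ENSMUSG00000022528, chromosome 16, 30064384 to 30067796, plus strand), a repressor of transcription, stood at 82.2, 89.2 and 71.1 FPKM in WT and at 89.7, 76.6 and 103.2 FPKM in Hspa9 cKO. The libraries of the groups were interleaved and the log2 change was 0.15, with a 95% interval of -0.19 to 0.48 (limma, adjusted p = 0.513). From its end event, the log2 change of Hes1 was -0.04. Its first start, at 30065340 to 30065698, did separate the groups, with 60.6, 65.8 and 68.7 FPKM in WT and 82.7, 75.5 and 82.2 FPKM in Hspa9 cKO, but was not called (limma on all start and end events, log2 change 0.30, adjusted p = 0.0693). An internal start at 30066338 to 30066542 varied from 0.0537 to 21.3 FPKM among WT libraries and from 0.134 to 19.6 FPKM among Hspa9 cKO libraries.

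Heyl (ENSMUSG00000032744, chromosome 4, 123233556 to 123249875, plus strand), a relative of Hes1, was near the floor in WT, at 0.0681, 0.535 and 0.0439 FPKM, and at 2.84, 3.54 and 3.08 FPKM in Hspa9 cKO. Every Hspa9 cKO library was above every WT library, but the filter required this of a gene under 1 FPKM in all WT libraries. The log2 change was 1.79 ± 0.19 (standard error; limma, adjusted p = 0.00492) and 3.70 with a pseudocount of 0.1, since the added constant compresses low values. Its end event gave 0.00844, 0.526 and 0.994 FPKM in WT and 2.48, 3.37 and 3.06 FPKM in Hspa9 cKO.

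A ratio of genes within a library does not depend on that library's scale. The ratio of Dtx1 to Hes1 was 0.380, 0.301 and 0.366 in WT and 0.844, 1.02 and 0.769 in Hspa9 cKO. That of Il2ra to Hes1 was 1.93, 1.73 and 2.04 in WT and 4.25, 4.79 and 3.71 in Hspa9 cKO. The 4 ratios computed, with Notch3 and Ptcra to Notch1 as the others, were chosen after the numerators were seen to be called and the denominators not, so they restate those calls and are no separate support.

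The largest rises in FPKM were in thymocyte genes of the pre-T cell receptor stage. Il2ra (ENSMUSG00000026770, chromosome 2, 11642807 to 11693193, plus strand) encodes CD25, the alpha chain of the interleukin-2 receptor, and CD25 is also the surface marker by which the cells were sorted. It stood at 158, 155 and 145 FPKM in WT and at 381, 366 and 383 FPKM in Hspa9 cKO. Its mean was 2.47 times higher, or 1.30 ± 0.06 (standard error) on the log2 scale (limma, adjusted p = 0.000460). The main end, at 11689758 to 11693193, followed with a log2 change of 1.29. An early end at 11647972 to 11648768 took 0.985% to 3.97% of the end signal in WT and 1.15% to 3.60% in Hspa9 cKO, and the groups overlapped.

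Ptcra (ENSMUSG00000036858, chromosome 17, 46755663 to 46763712, minus strand) encodes the pre-T alpha chain, which pairs with the T cell receptor beta chain. It had 75.5, 57.9 and 84.9 FPKM in WT and 147, 142 and 152 FPKM in Hspa9 cKO. Its mean was 2.02 times higher, or 1.02 ± 0.14 (standard error) on the log2 scale (limma, adjusted p = 0.00984). WT replicate 2 was the lowest library, and without it the change was 0.87 and still called. A single start and a single end, with equal values, were listed on its strand. Igf1r (ENSMUSG00000005533, chromosome 7, 67952827 to 68233668, plus strand), the insulin-like growth factor receptor, was low, at 7.51, 6.87 and 4.85 FPKM in WT and 6.29, 6.64 and 5.65 FPKM in Hspa9 cKO. The groups overlapped, and the 95% interval of its log2 change, -0.42 to 0.37, spans 0 (limma, adjusted p = 0.930).

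The stretches before the starts of 4 of the genes that rose are shown because those genes moved together and Notch acts through RBPJ at DNA. RefSeq (GRCm38.p6) gave a window for 8 of the 10 genes, and the 250 bases before the RefSeq start are printed 5′ to 3′ on the gene's strand. For Dtx1 that start differs from the one measured here. Its window lies inside the measured first exon, 120711485 to 120711927, and not before it. Capitals mark matches to TGGGAA, the core that RBPJ recognises, on either strand (TTCCCA is its reverse), and to CAGCTG, an E-box read alike on both strands and bound by E proteins; the motifs did not overlap. The windows are chr2:11642542-11642791 (plus strand) for Il2ra, chr17:46763713-46763962 (minus strand) for Ptcra, chr5:120711670-120711919 (minus strand) for Dtx1 and chr17:32166891-32167140 (minus strand) for Notch3.
Ptcra: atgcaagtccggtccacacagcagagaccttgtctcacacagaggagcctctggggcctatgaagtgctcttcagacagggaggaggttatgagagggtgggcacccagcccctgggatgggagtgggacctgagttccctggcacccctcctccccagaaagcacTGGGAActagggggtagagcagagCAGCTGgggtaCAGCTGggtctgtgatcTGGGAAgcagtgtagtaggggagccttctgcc
Il2ra: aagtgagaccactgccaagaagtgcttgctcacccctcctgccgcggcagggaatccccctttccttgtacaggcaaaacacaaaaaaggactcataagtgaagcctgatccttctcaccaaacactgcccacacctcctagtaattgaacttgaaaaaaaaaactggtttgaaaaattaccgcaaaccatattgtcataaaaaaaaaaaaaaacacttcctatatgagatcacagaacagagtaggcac
Dtx1: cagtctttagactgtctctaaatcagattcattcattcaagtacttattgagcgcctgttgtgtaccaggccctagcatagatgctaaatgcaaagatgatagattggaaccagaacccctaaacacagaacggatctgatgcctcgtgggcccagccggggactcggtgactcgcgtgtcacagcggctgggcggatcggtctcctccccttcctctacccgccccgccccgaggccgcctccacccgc
Notch3: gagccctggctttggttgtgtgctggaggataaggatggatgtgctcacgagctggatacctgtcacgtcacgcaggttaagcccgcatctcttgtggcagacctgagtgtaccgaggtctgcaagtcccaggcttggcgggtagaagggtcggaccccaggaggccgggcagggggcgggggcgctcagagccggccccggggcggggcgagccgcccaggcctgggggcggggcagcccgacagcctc
The Ptcra window holds 2 matches to TGGGAA, at 84 to 79 and 32 to 27 bases before the start, and between them 2 to CAGCTG, at 60 to 55 and 49 to 44 bases. No match to either stands in the windows of Il2ra, Dtx1 and Notch3, nor in that of Notch1, while Rbpj, whose level did not pass the test, has 2 TGGGAA matches over its 2 overlapping windows. Both Rbpj windows run into the first exon measured here, which begins at 53590214. Of 32851 such windows, 21.6% hold TGGGAA and 13.0% hold CAGCTG. These are matches of letters in a short window and say nothing of binding there or elsewhere.

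The order of levels was much alike in both groups, apart from Hes1. In WT it ran Il2ra, Notch1, Hes1, Ptcra, Notch3, Dtx1, Rbpj, Igf1r and Heyl, with the ranges of Il2ra and Notch1, of Hes1 and Ptcra, and of Ptcra and Notch3 overlapping. In Hspa9 cKO it ran Il2ra, Notch1, Ptcra, Notch3, Hes1, Dtx1, Rbpj, Igf1r and Heyl, and the neighbours whose ranges overlapped were Notch3 and Hes1, and Hes1 and Dtx1. Il2ra and Notch1 stood at the 99.2 and 98.7 percentile of mean level among all genes with a level, and Igf1r at the 50.8 percentile.

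**Figure D3:**
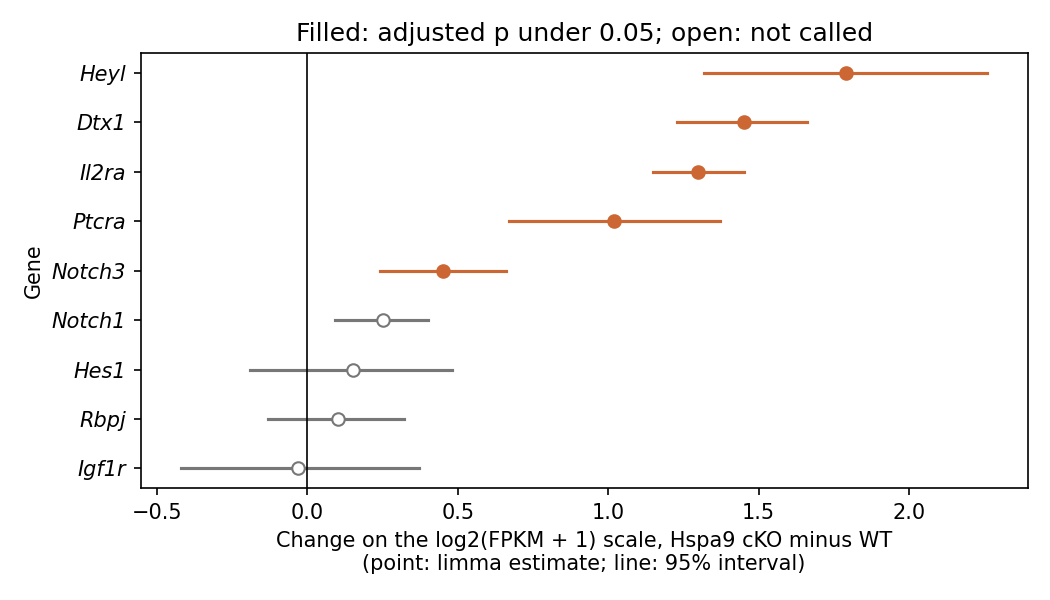
Change in Hspa9 cKO against WT on the log2(FPKM + 1) scale for the 9 genes tested, with the limma estimate (point) and its 95% interval (line); filled points passed the test. Heyl, Dtx1, Il2ra and Ptcra lie at 1.02 or above, Notch3 at 0.45, and the open points of Notch1, Hes1, Rbpj and Igf1r lie between -0.03 and 0.25.

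Splicing of the members was read where inclusion and exclusion events share both flanks. Such pairs existed for Notch1, Hes1 and Igf1r, and none of the 4 pairs was called (limma on 9156 ratios, of which 0.175% were higher and 0.0655% lower, 0.24% in all; unadjusted p between 0.279 and 0.949). A Notch1 intron at 26465566 to 26466467 was retained in 10.5%, 9.85% and 0% of the signal in WT and in 12.1%, 11.8% and 5.10% in Hspa9 cKO. The small exon of Igf1r at 68208913 to 68209005 was skipped in 87.4% to 91.6% in WT and in 80.6% to 100% in Hspa9 cKO. The groups overlapped for both.

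Of 77 other genes of the pathway, 60 were tested, and 3 rose and 3 fell, with a median log2 change of 0.15. Both counts are smaller shares than the 8.34% higher and 5.81% lower among all tested genes. Among ligands only Jag2 had a level, at 0.743 to 2.37 FPKM over the 6 libraries, and Notch2 and Notch4 had none. Of 15 genes of receptor processing and trafficking, 1 rose and none fell. That gene, Lfng, encodes Lunatic fringe, a glycosyltransferase that adds sugar to Notch and favours its binding to Delta ligands. It had 10.3, 8.89 and 10.2 FPKM in WT and 14.1, 14.5 and 14.8 FPKM in Hspa9 cKO, a log2 change of 0.52 (limma, adjusted p = 0.0161). Its call was lost without any 1 Hspa9 cKO library (adjusted p 0.0521 to 0.0624, limma). Ncstn, Aph1a and Psenen, subunits of gamma-secretase, were not called.

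Of 8 nuclear co-activators none was called, with a median log2 change of 0.26; Maml1, the Mastermind protein of the complex, had 5.96, 5.85 and 5.86 FPKM in WT and 7.19, 7.63 and 7.41 FPKM in Hspa9 cKO (limma, adjusted p = 0.0700). Of 12 co-repressors 2 fell. Tle3, a Groucho family protein that works with HES factors, changed by -0.33, and the histone deacetylase Hdac1 by -0.26. Both calls were lost without any 1 of the 6 libraries (adjusted p 0.0576 to 0.0915 for Tle3 and 0.0845 to 0.133 for Hdac1, limma).

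Of 12 genes of turnover and inhibition 2 rose, both of the Deltex family to which Dtx1 belongs. Dtx4 had 1.23, 1.51 and 1.82 FPKM in WT and 5.98, 6.48 and 6.52 FPKM in Hspa9 cKO, a log2 change of 1.54 (limma, adjusted p = 0.00208). Dtx3l, which pairs with PARP9 and is also induced by interferon, had 18.9, 20.7 and 18.3 FPKM in WT and 38.9, 38.3 and 35.9 FPKM in Hspa9 cKO, a log2 change of 0.93. Dtx2 and Dtx3 had log2 changes of -0.29 and 0.27 and were not called.

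Of 12 further genes reported as Notch targets in T cell precursors none rose and 1 fell, with a median log2 change of -0.01. Tcf7, which encodes TCF-1 and is switched on by Notch in early progenitors, had 596, 415 and 440 FPKM in WT and 316, 264 and 262 FPKM in Hspa9 cKO, a log2 change of -0.77 (limma, adjusted p = 0.0288). The groups did not overlap. From its end events the change was -0.44 and not called, and the call needed WT replicate 3 and each of the Hspa9 cKO libraries (left out in turn, adjusted p over 0.05). Myc, a growth regulator, had 78.2, 102.3 and 99.98 FPKM in WT and 112, 125 and 124 FPKM in Hspa9 cKO, a log2 change of 0.37 that did not pass (limma, adjusted p = 0.0976). Hey1, a relative of Heyl, was at 1.42, 0.868 and 0.801 FPKM in WT and was not listed in Hspa9 cKO, which can be a failed estimate; it was not tested.

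**Figure D4:**
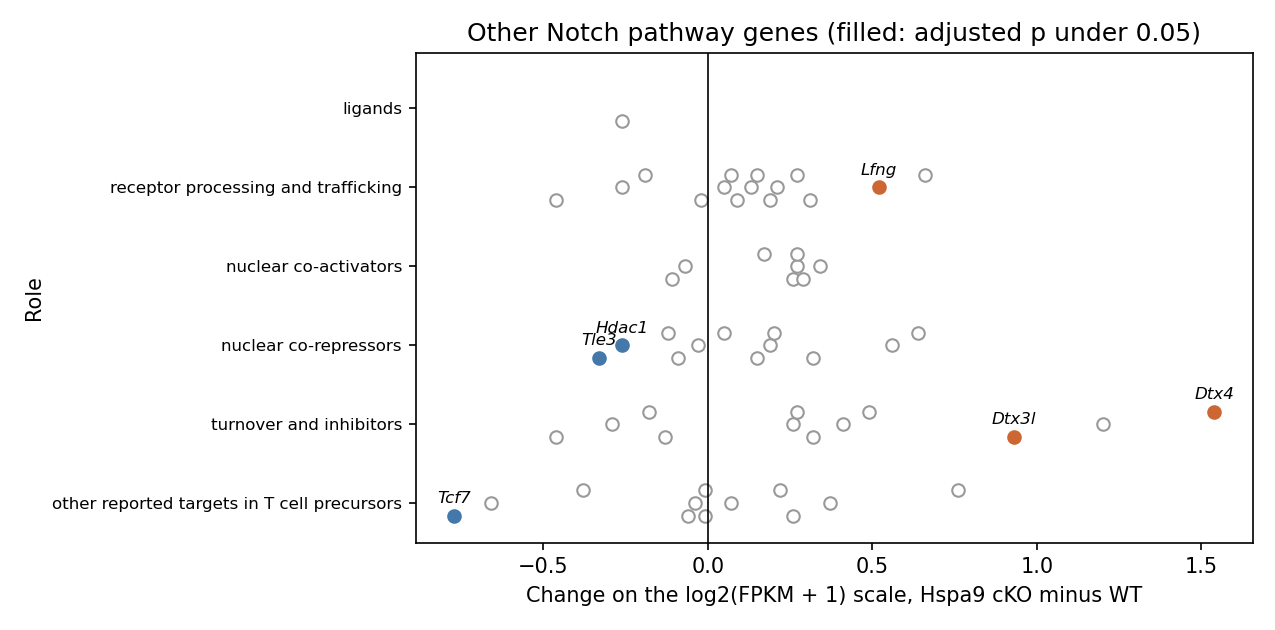
Change in Hspa9 cKO against WT on the log2(FPKM + 1) scale for 60 other Notch pathway genes, 1 point a gene, by role; filled points passed the test and are named. Lfng, Dtx3l and Dtx4 are higher, Tle3, Hdac1 and Tcf7 lower, and the other 54 points are open.

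Among 6404 other tested genes with a mean of at least 5 FPKM, those whose 6 values, centred on their own mean, were nearest to a member's were as follows. They were picked for being near, mostly by a like difference between the groups, so their nearness shows no shared control. For Dtx1 they were Pld4, an endolysosomal nuclease, Aldh1b1 and Pck2, both enzymes of the mitochondrial matrix. Their root mean squared differences were 0.0819, 0.0894 and 0.0912 on the log2 scale over 6 libraries. Their log2 changes were 1.52, 1.35 and 1.40, beside 1.45 for Dtx1. For Ptcra they were Slc25a36, a mitochondrial nucleotide carrier, Cblb, a ubiquitin ligase that restrains T cell signalling, and AI467606 (0.0735, 0.1004 and 0.101). These had log2 changes of 1.01, 1.20 and 1.03, beside 1.02 for Ptcra. For Notch1 they were Gabarapl1, an autophagy gene, Lonp2 and 1110012L19Rik (0.0141, 0.0223 and 0.0244), at a change as small as its own. Of the 6 other DN3 markers with a level, 2 rose and 4 were not called, beside 8.34% of all tested genes called higher. Their median log2 change was 0.52, beside 0.45 for the members and 0.06 over all tested genes. Rag2, of the recombinase, went from 9.09, 9.56 and 11.3 FPKM to 21.4, 18.0 and 17.1 FPKM, and Cd3g, a CD3 chain, from 715, 724 and 760.2 FPKM to 1094, 1050 and 1059 FPKM; the log2 changes were 0.85 and 0.54 (limma). Those not called were Rag1 (log2 change 0.40), Cd3e (0.50), Bcl11b (0.76) and Thy1 (-0.21). For Cd3e and Bcl11b every Hspa9 cKO library still lay above every WT library, while Rag1 and Thy1 overlapped.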

How the data were processed

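RNA sequencing was done on sorted DN3 thymocytes, 3 WT and 3 Hspa9 cKO libraries, grouped by their titles. The submitters' processing notes name cutadapt 1.9.1 and mm10; the sources used here give no aligner, assembler or event caller. Per the file headers, each deposited value is the FPKM of an event of transcript structure (a start, an end, a skipped exon), so a level depends on how reads were divided among isoforms, and read depth is unknown. Unlisted events counted as 0, which may be a failed estimate.

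FPKM of start events were added up per gene (end events where no start is listed), by the tables' gene ID, repeated events dropped, for events overlapping the gene on its strand in GENCODE M21. Levels on log2(FPKM + 1) were tested with limma 3.58.1 (R 4.3.3), two-sided, with trended robust variances, for genes reaching 1 FPKM in 3 libraries, and adjusted by the Benjamini-Hochberg method over all of them; fold changes on this scale understate low genes. Start and end events, and splicing ratios of pairs averaging 5 FPKM or more, were fitted likewise. The limma step was tested on simulated data. Named genes were the members, Hspa9, the 2 called genes with the smallest adjusted p per pathway list and direction, the 3 nearest profiles of Notch1, Dtx1 and Ptcra, and markers; further pathway genes were named after their values were seen. The members and lists were chosen with earlier results of these data known. Alternatives were a replicate block, other filters, a pseudocount of 0.1, library rescaling by median ratios or by mean log ratios trimmed of 30% at each end, end events, no position check, plain variances and leaving out each library. Some marker and pathway results are not reported here.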

Additional observations from a re-analysis of the deposited data

Results flagged for a closer look

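Start events on the plus strand that carry the Notch1 ID lie outside the gene's level and were higher in Hspa9 cKO, with a mean of 35.3 FPKM against 13.2 FPKM in WT (SD 3.13 and 4.25, n = 3 each; exact two-sided permutation test, p = 0.1, the smallest possible here). An end event on that strand at 26520871 to 26524135 was listed in Hspa9 cKO replicates 1 and 3 alone, at 30.02 and 1.80 FPKM.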

How the results depend on the processing

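Il2ra, Ptcra, Dtx1 and Heyl kept their direction and their call under every alternative that gave them a value. Heyl passed the 1 FPKM filter only through the Hspa9 cKO libraries, so most of its repeats share that selection. With no filter its adjusted p was 0.00735 (limma). The 5 FPKM filter removed Heyl, and end events gave no test for Notch1, Dtx1 and Igf1r. The count of members called higher was 4 to 6. Notch1 was called with the 5 FPKM filter (adjusted p = 0.0465) and with no position check. Under the 13 other alternatives Notch1 was not called. Rescaling gave it a log2 change of 0.19 (limma, adjusted p = 0.105 by median ratios and 0.112 by trimmed means). With any 1 library left out, the adjusted p of Notch1 was 0.0884 to 0.139 (limma). Leaving out any 1 library moved the count of called genes by over 1.5 times, to 490 to 822 in place of 1262. It also gave 2 to 5 called pathway genes in place of 6 (3 without WT replicate 3, 2 or 3 without any 1 Hspa9 cKO library), 3 to 8 called member start and end events in place of 9 (4 without WT replicate 1 and 3 without any 1 Hspa9 cKO library), an Igf1r change of -0.19 to 0.08, and an Hspa9 change of -0.06 to 0.05. Hspa9 changed sign on rescaling by trimmed means (-0.05) and median ratios (-0.05), and Hes1 on end events (-0.04); the cause was not tested. Rescaling by trimmed means gave 584 genes higher and 671 lower, in place of 744 and 518, and by median ratios 590 and 657.

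Deviations of same-numbered libraries from their group means had correlations of 0.0192, -0.0286 and -0.0278. The labels do not say what the number stands for. With 3 libraries per group, whose deviations sum to 0, these correlations cannot settle whether same-numbered libraries are paired. The replicate block gave 221 called genes, 4 members called (Notch3 had an adjusted p of 0.0743, limma) and 3 pathway genes. Of 23 member start and end events, 0 were called with the block and 9 without it (limma). Those 9 came from the 5 called members, most counted by both a start and an end. An unadjusted p under 0.05 was found for 12 with the block and 11 without it (limma). Of all 20114 start and end events, 8.08% were called without the block. The share with the block is not given here, so the 0 has nothing to be set against.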
